A study of Mus musculus with 4 samples.

Results

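Lysosomal genes were followed in RNA-seq of primary liver sinusoidal endothelial cells (LSECs) from mouse. The 38 genes were chosen by name as hydrolases, membrane proteins and regulators that serve the endocytic clearance of these cells. All 38 were found among the 18373 genes of the deposited table, and all 38 passed the filter on low counts, as did 13628 genes in all. The cells came from livers of 8-week-old Balb/c mice, were collected with beads against CD146, cultured for 24 h and transfected for 48 h, and the labels place all 4 libraries at day 3. In 2 libraries the cells received the NC control, and in the other 2 libraries siAirn, small interfering RNA against *Airn*, a long non-coding RNA. Both siAirn labels carry the name siAirn1, while the design text speaks of separate siAirn, so it is not settled which siRNA each library received. The labels call replicates 1 and 2 biological replicates, but do not say whether they came from separate animals or cultures, so p-values measure the spread between these libraries only. *Airn* itself had 7 and 3 counts in the NC libraries and 11 and 9 counts in the siAirn libraries, so its level was not lower where the labels name the knockdown. For this reason the groups are given below as the libraries labelled NC and the libraries labelled siAirn.

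The lysosome is the acidic compartment in which cells break down proteins, glycans, lipids and nucleic acids taken up from outside or delivered by autophagy. A proton pump, the V-ATPase, acidifies it, heavily glycosylated membrane proteins line it, and its soluble hydrolases are carried there mostly by mannose 6-phosphate receptors. LSECs are among the most active scavenger cells of the body and clear matrix fragments, modified lipoproteins and small immune complexes from the blood through receptors such as the stabilins, with degradation in lysosomes. The transcription factors TFEB and TFE3 are known to drive many lysosomal genes through a short promoter element built around the letters CACGTG.

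That element makes the promoters of these genes worth showing beside the values. RefSeq promoter windows on GRCm38.p6, from 250 bases before to 50 bases after each gene's start, were matched by symbol for 33 of the 38 genes and not for *Asah1*, *Atp6v1h*, *Ctsb*, *Ctsh* and *Npc1*. A gene with several listed starts was counted once, as holding the motif if any of its windows did. CACGTG, which reads the same on both strands, lay in 13 of 33 lysosomal genes (39.4%), in 8.09% of the 27025 genes with a window and in 11.6% of the 10272 genes tested that had one. The longer palindrome TCACGTGA, which contains CACGTG, lay in 7 of 33 lysosomal genes (21.2%), in 1.12% of all genes with a window and in 2.11% of the genes tested that had one. The 5 windows below are shown because each holds CACGTG at least 2 times (*Cln3*, which also holds it 2 times, is not printed), with CACGTG in capitals and the gene's strand written 5′ to 3′.
Lamp1, chr8:13158911-13159210, plus strand: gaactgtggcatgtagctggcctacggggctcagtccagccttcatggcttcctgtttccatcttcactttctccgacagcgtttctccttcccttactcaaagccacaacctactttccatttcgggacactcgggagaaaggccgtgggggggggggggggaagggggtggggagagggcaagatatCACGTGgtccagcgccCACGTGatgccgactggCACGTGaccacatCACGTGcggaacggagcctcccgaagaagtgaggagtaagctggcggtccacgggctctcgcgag
Ctsd, chr7:142387778-142388077, minus strand: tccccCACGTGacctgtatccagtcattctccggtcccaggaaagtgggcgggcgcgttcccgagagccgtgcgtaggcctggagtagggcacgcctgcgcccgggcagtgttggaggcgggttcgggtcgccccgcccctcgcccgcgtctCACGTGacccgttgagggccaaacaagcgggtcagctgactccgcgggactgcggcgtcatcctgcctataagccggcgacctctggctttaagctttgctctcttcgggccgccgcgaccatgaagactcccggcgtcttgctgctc
Gla, chrX:134600956-134601255, minus strand: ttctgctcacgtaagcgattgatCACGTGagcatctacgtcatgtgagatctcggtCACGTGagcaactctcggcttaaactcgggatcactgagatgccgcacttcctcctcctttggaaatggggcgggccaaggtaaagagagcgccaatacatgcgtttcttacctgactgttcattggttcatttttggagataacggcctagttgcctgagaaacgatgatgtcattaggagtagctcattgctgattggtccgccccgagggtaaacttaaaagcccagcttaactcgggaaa
Mcoln1, chr8:3500269-3500568, plus strand: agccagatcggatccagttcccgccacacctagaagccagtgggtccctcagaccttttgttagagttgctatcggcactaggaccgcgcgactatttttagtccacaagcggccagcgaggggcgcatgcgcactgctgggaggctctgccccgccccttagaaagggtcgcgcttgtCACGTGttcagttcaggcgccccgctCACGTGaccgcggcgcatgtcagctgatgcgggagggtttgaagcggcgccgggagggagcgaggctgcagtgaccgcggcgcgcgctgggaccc
Ctsa, chr2:164833523-164833822, plus strand: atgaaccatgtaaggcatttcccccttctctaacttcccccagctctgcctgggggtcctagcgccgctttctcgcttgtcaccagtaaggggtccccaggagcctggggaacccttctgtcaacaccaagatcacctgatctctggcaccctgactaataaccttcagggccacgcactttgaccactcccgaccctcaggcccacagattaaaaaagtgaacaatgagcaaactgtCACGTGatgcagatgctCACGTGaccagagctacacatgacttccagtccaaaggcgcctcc
*Lamp1* was the only gene of the 33 with 4 copies, which began 61, 45, 28 and 15 bases before the start. In *Ctsd* the copies began at -245 and -98 relative to the start, in *Gla* at -227 and -194, in *Mcoln1* at -71 and -45, and in *Ctsa* at -12 and 5. The other 8 genes with the motif were *Arsa*, *Atp6v0d1*, *Atp6v1a*, *Cln3*, *Ctsl*, *Glb1*, *Lgmn* and *Naglu*. A match is a description of the letters in the window, and binding was not measured in these libraries.

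Most lysosomal genes were lower in the libraries labelled siAirn, and *Ctsb*, first among them in NC on the length-corrected scale, was lower by the most. Of the 38 genes, 21 were lower with an adjusted p under 0.05 (55.3%), 2 were higher (*Asah1* and *Atp6v1h*, 5.26%) and 15 did not pass. Over all genes tested, 8.56% were lower and 8.27% higher by the same rule. Lysosomal genes are abundant, and abundant genes pass more often. Among the 4696 genes with a mean level at or above the members' lower quartile, 51.9 CPM (counts scaled to the library total by TMM), 14.2% were lower and 12.7% higher. The counts by role given below are to be read against these shares. The median log2 fold change was -0.31 over the 38 genes and 0.00 over all genes tested (0.00126), and 33 of the 38 values were below 0. The 2 NC libraries lay entirely above the 2 siAirn libraries for 27 members and entirely below for 4, and the groups overlapped for 7. Such separation was common, with 31.9% of all genes tested separated downward and 30.9% upward. Leaving out 1 library left the median between -0.31 and -0.28, but the calls depended on the NC libraries. Without NC replicate 1 only 1 member, *Ctsb*, stayed called lower, and without NC replicate 2 none did, although 21 members were then lower at an unadjusted p under 0.05. Without siAirn replicate 1 or 2, 18 and 16 members were called lower. A limma test on log2(FPKM + 0.1) called none of the members at an adjusted p under 0.05, with 21 lower and 2 higher at an unadjusted p under 0.05.

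Summed over the 38 genes, the level was 12465 and 13284 CPM in the NC libraries and 9304 and 9547 CPM in the siAirn libraries, or 1.23% and 1.31% against 0.947% and 0.963% of all counts. Without *Ctsb* the sums were 10136 and 10731 CPM against 8032 and 8273 CPM. The siAirn libraries were thus below the NC libraries with or without the most abundant member. In bulk RNA, fewer cells of a type and less RNA per cell cannot be told apart.

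**Figure D1:**
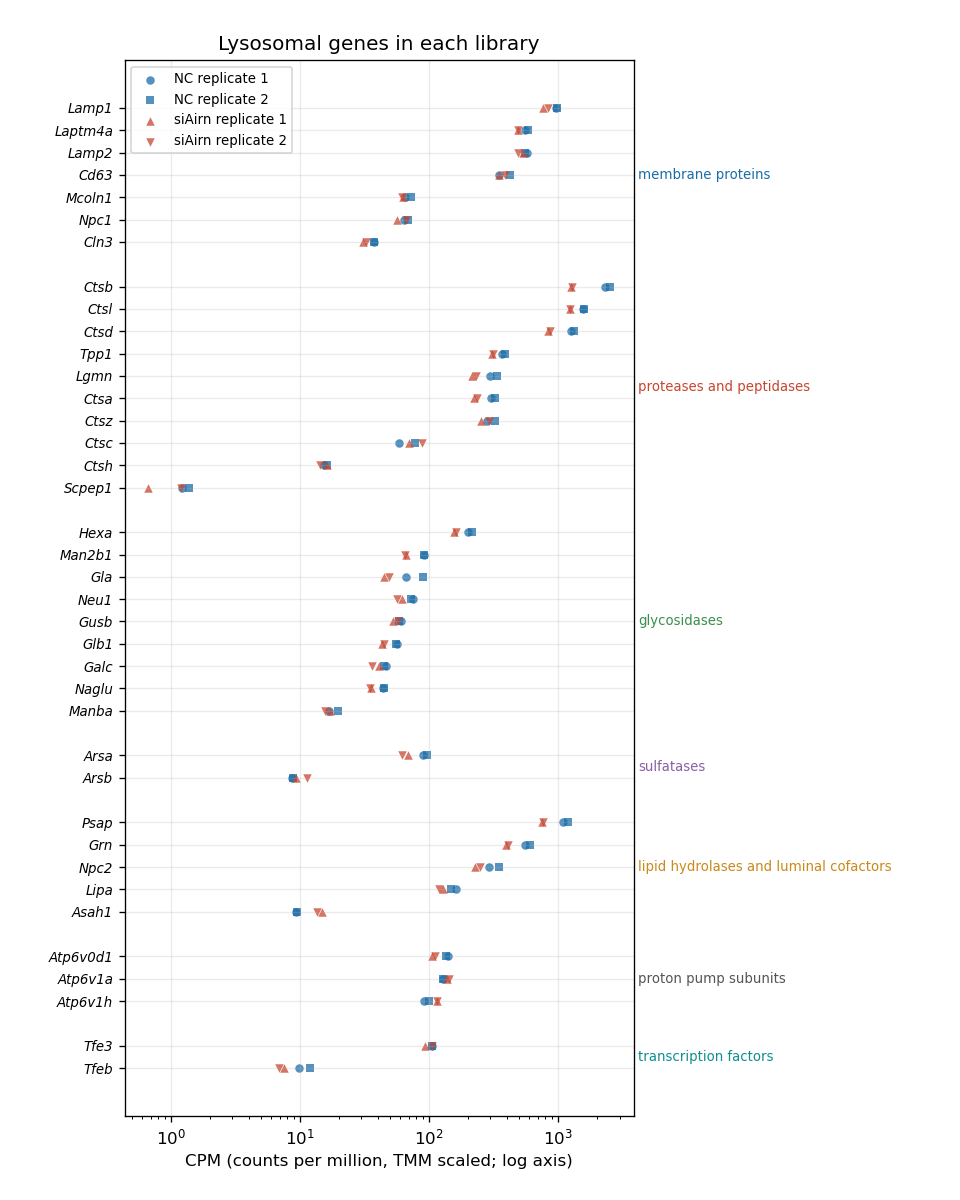
CPM of the 38 lysosomal genes in each of the 4 libraries, on a log axis, ordered by role and by NC level within a role. Blue symbols are the NC libraries and red symbols the siAirn libraries. *Ctsb* runs from 1271 to 2553 CPM and *Scpep1* from 0.664 to 1.38 CPM.

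Among the 10 proteases and peptidases, 6 were lower, none was higher, and the median log2 fold change was -0.40. *Ctsb*, which encodes the cysteine protease cathepsin B, had the largest change of the 38 genes. It was at 2329 and 2553 CPM in the NC libraries and at 1271 and 1274 CPM in the siAirn libraries, a log2 fold change of -0.94 ± 0.07 (SE, adjusted p = 0.00284). Its siAirn mean was 52.1% of its NC mean, and the gap between the groups was far wider than the spread within either. On the CPM scale, which is not corrected for length, its mean fell by 1168 CPM, the largest decrease of all genes tested. *Ctsd*, which encodes the aspartic protease cathepsin D, stood at 1267 and 1343 CPM against 836 and 860.4 CPM, with a log2 fold change of -0.62 ± 0.06 (adjusted p = 0.00496). *Ctsl*, the cysteine protease cathepsin L, was lower by less, at 1574 and 1592 CPM against 1249.7 and 1242 CPM (-0.35 ± 0.06, adjusted p = 0.0122). Because *Ctsb* fell further than *Ctsl*, their order changed on the scale that corrects for length. The ratio of *Ctsb* to *Ctsl* in FPKM, which divides by transcript length and library total, was 1.30 and 1.42 in the NC libraries and 0.854 and 0.864 in the siAirn libraries. *Ctsb* ranked first and *Ctsl* next in FPKM among the 38 in NC, and the reverse held in siAirn.

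Another 3 proteases were lower. *Lgmn*, the asparaginyl endopeptidase that trims cathepsins to their mature form, stood at 298 and 336 CPM against 217 and 232 CPM (-0.50 ± 0.08, adjusted p = 0.012). *Ctsa*, a carboxypeptidase that also shields a sialidase and a galactosidase from degradation, had 304 and 323 CPM against 223 and 234 CPM (-0.46 ± 0.07, adjusted p = 0.00962). *Tpp1*, the tripeptidyl peptidase lost in a childhood form of neuronal ceroid lipofuscinosis, had 369 and 392 CPM against 306 and 314 CPM (-0.30 ± 0.06, adjusted p = 0.0241). In all 3 genes both siAirn libraries were below both NC libraries. The remaining 4 proteases did not pass. *Ctsz* had a log2 fold change of -0.16 ± 0.09 and *Ctsh* one of -0.05 ± 0.11. *Ctsc*, the dipeptidyl peptidase that activates granule serine proteases, had a value of 0.22 ± 0.15, and its groups overlapped, with 58.7 and 77.4 CPM against 70.3 and 88.5 CPM. Without 1 library its value ran from 0.03 (NC replicate 1 left out) to 0.44 (NC replicate 2 left out). *Scpep1* was low, at 0.664 to 1.38 CPM, where 3 counts are worth 0.166 to 0.175 CPM, and did not pass (-0.49 ± 0.42).

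**Figure D2:**
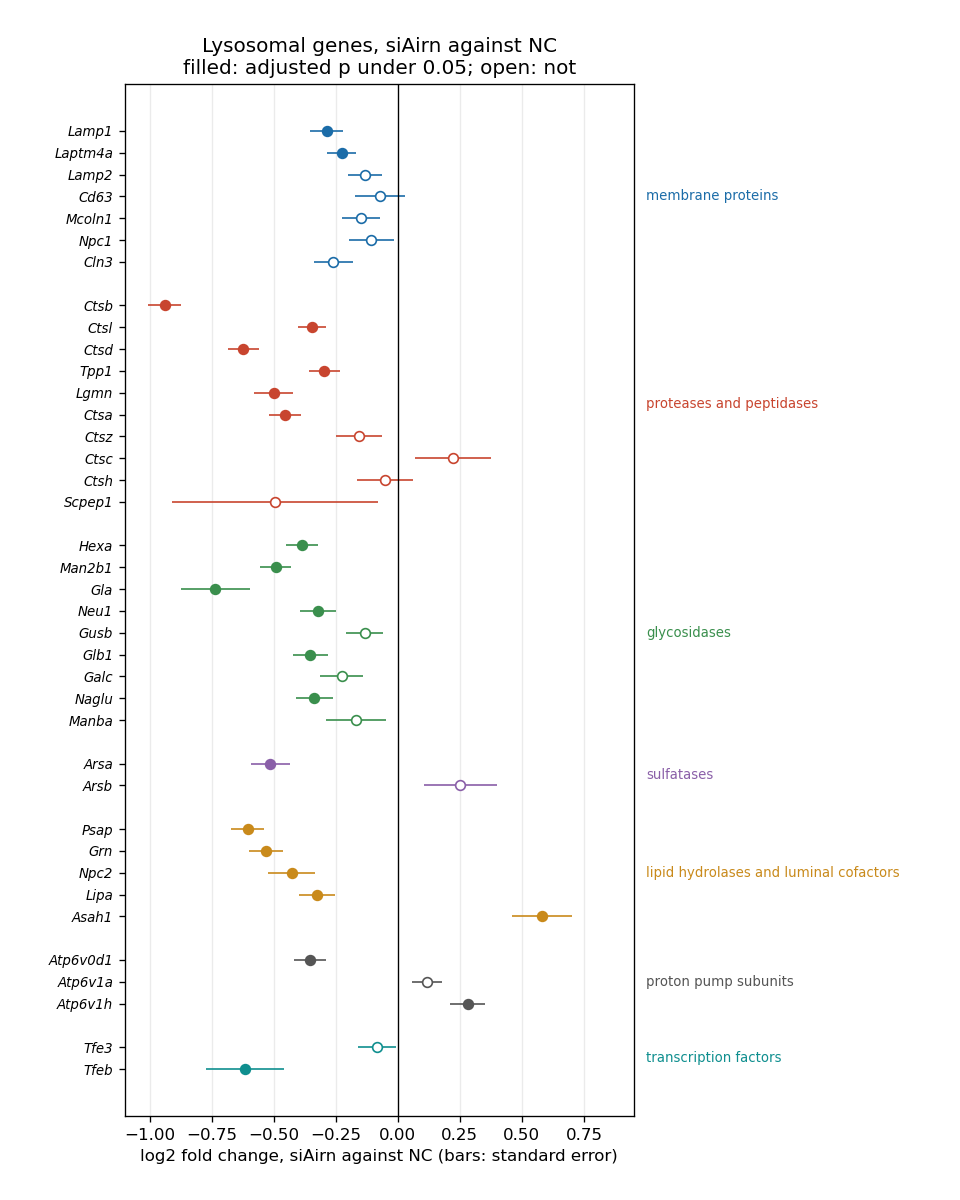
Log2 fold change, siAirn against NC, of the 38 lysosomal genes with its standard error, in the same order as the plot of levels. Filled points have an adjusted p under 0.05. *Ctsb* lies at -0.94 and *Asah1* at 0.58, and the filled points left of 0 number 21.

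Of the 9 glycosidases, which take sugar residues off glycoproteins, glycolipids and matrix glycans, 6 were lower, none was higher and the median log2 fold change was -0.34. *Gla*, the alpha-galactosidase deficient in Fabry disease, changed most and varied most. It had 65.8 and 89.2 CPM in NC and 44.5 and 48.7 CPM in siAirn, a log2 fold change of -0.73 ± 0.14 (adjusted p = 0.0189). Leaving out NC replicate 1 moved its value to -0.94, and leaving out NC replicate 2 moved it to -0.50. *Man2b1*, the lysosomal alpha-mannosidase, had 92.2 and 92.1 CPM against 66.3 and 64.7 CPM (-0.49 ± 0.06, adjusted p = 0.00751). *Hexa*, the alpha subunit of beta-hexosaminidase, which is deficient in Tay-Sachs disease, stood at 202 and 214 CPM against 157 and 162 CPM (-0.38 ± 0.06, adjusted p = 0.0134). These 3 genes had no overlap between the groups.

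*Glb1* and *Neu1* encode the galactosidase and the sialidase that share a complex with the *Ctsa* product. *Glb1* had 57.0 and 55.1 CPM against 43.2 and 44.6 CPM (-0.35 ± 0.07, adjusted p = 0.0208). *Neu1* had 75.2 and 72.0 CPM against 61.6 and 56.1 CPM (-0.32 ± 0.07, adjusted p = 0.0301). *Ctsa*, *Glb1* and *Neu1* were thus all lower, with log2 fold changes of -0.46, -0.35 and -0.32. *Naglu*, which acts on heparan sulfate, had 43.8 and 44.7 CPM against 35.4 and 34.7 CPM (-0.34 ± 0.07, adjusted p = 0.0265), with an adjusted p of 0.0707 by DESeq2. The 3 glycosidases that did not pass all had values below 0, namely *Galc* at -0.23 ± 0.09, *Manba* at -0.17 ± 0.12 and *Gusb* at -0.13 ± 0.07. Of the 2 sulfatases 1 was lower. *Arsa*, which desulfates sulfatide, had 90.4 and 97.0 CPM against 69.3 and 62.0 CPM (-0.51 ± 0.08, adjusted p = 0.0116), and *Arsb*, which acts on dermatan and chondroitin sulfate, did not pass at 0.25 ± 0.15.

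Every one of the 5 lipid hydrolases and luminal cofactors passed the test, 4 lower and 1 higher. *Psap*, the precursor of the saposins that present sphingolipids to their hydrolases, stood at 1099 and 1199 CPM against 747 and 763 CPM (-0.61 ± 0.07, adjusted p = 0.00574). *Grn*, the precursor of the granulins, which binds the *Psap* product on its way to the lysosome, had 558 and 611 CPM against 397 and 413 CPM (-0.53 ± 0.07, adjusted p = 0.00793). For both, the siAirn libraries were close to each other and below both NC libraries. *Npc2*, the soluble protein that hands cholesterol to the membrane protein of *Npc1*, had 294 and 349 CPM against 228 and 249.99 CPM (-0.43 ± 0.09, adjusted p = 0.0276). *Lipa*, the acid lipase that frees cholesterol from its esters, had 161 and 149 CPM against 128 and 119.5 CPM (-0.33 ± 0.07, adjusted p = 0.0258). *Asah1*, the acid ceramidase, was the exception. It had only 9.40 and 9.56 CPM in NC and rose to 14.8 and 13.6 CPM in siAirn (0.58 ± 0.12, adjusted p = 0.0232). By DESeq2 the adjusted p of *Asah1* was 0.0524, and over the alternatives it ran from 0.000706 to 0.133.

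Of the 7 membrane proteins 2 were lower and none was higher, with a median log2 fold change of -0.15. *Lamp1*, a major glycoprotein of the lysosomal membrane, had 961 and 989.8 CPM against 764 and 836 CPM (-0.29 ± 0.07, adjusted p = 0.031). *Laptm4a* had 559.6 and 583 CPM against 487 and 490.4 CPM (-0.23 ± 0.06, adjusted p = 0.0426). Neither overlapped between groups, beside 31.9% of all genes tested that were separated downward. Without 1 library the value of *Lamp1* ran from -0.35 to -0.22 and that of *Laptm4a* from -0.26 to -0.20. The call of *Laptm4a* was lost whichever library was left out. The tetraspanin *Cd63*, a marker of late endosomes and lysosomes, overlapped, at 349.5 and 422 CPM against 348 and 386 CPM (-0.07 ± 0.10, adjusted p = 0.651). *Mcoln1*, the calcium channel of the lysosomal membrane, had 65.0 and 72.7 CPM against 62.8 and 61.6 CPM and did not pass (-0.15 ± 0.08, adjusted p = 0.227). Values for the others that did not pass were -0.26 ± 0.08 for *Cln3* (adjusted p = 0.0637), -0.13 ± 0.07 for *Lamp2* and -0.11 ± 0.09 for *Npc1*. The 6 members with the highest FPKM were *Ctsb*, *Ctsl*, *Ctsd*, *Cd63*, *Lamp1* and *Psap*, which held 60.8% and 61.0% of the members' summed CPM in NC and 56.1% and 56.2% in siAirn. Of these 6, all but *Cd63* were lower.

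Of the 3 proton pump subunits 1 was lower, 1 was higher and 1 was not called. *Atp6v0d1* belongs to the membrane sector V0, and had 139.7 and 136 CPM against 105 and 111 CPM (-0.35 ± 0.06, adjusted p = 0.0156). *Atp6v1h*, a regulatory subunit of the cytosolic sector V1, rose from 90.9 and 99.3 CPM to 115 and 116 CPM (0.28 ± 0.07, adjusted p = 0.0356). The call of *Atp6v1h* was lost whichever library was left out, with values from 0.22 to 0.35 and adjusted p from 0.0618 to 0.181, and with GC and length offsets *Atp6v1h* (0.06) and *Atp6v0d1* (-0.19) both lost theirs. *Atp6v1a*, the catalytic subunit of V1, did not pass, with 129 and 129.6 CPM against 138 and 143 CPM (0.12 ± 0.06, adjusted p = 0.214). With the offsets its value was 0.02. Beyond these 3, 17 other pump subunits were tested, of which 9 were lower (52.9%) and none was higher. Over all genes tested 8.56% were lower, and over the abundant ones 14.2%. The median log2 fold change of these 17 was -0.26, and -0.21 with GC and length offsets. The largest changes among those 9 were in *Atp6v0e* (-0.60 ± 0.08), *Atp6v0e2* (-0.56 ± 0.10) and *Atp6v0a1* (-0.43 ± 0.06) of the V0 sector and in the accessory subunit *Atp6ap1* (-0.40 ± 0.06). V1 subunits were among the 9 as well, and *Atp6v1h* was the only one of all pump subunits tested that was higher.

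Of the transcription factors, *Tfeb* was lower and *Tfe3* was not. *Tfeb* was a low-abundance transcript with 9.86 and 12.1 CPM against 7.47 and 6.84 CPM (-0.62 ± 0.16, adjusted p = 0.0393). By DESeq2 its adjusted p was 0.0935, and over the alternatives it ran from 0.008 to 0.22. *Tfe3* had 106 and 106 CPM against 93.5 and 106 CPM (-0.08 ± 0.08, adjusted p = 0.474). Of 14 alternatives, 1 called *Tfe3*. With GC and length offsets *Tfe3* went to -0.18 and was not called, and *Tfeb* lost its call. *Mitf*, a relative of both, was at 2.38 to 4.26 CPM and did not pass (-0.26 ± 0.30). Of the 13 members with CACGTG in a promoter window, 10 were lower and none was higher, with a median of -0.35. Of the 20 members with a window that lacks it, 10 were lower and none was higher, with a median of -0.26. Of the 5 genes whose windows are printed above, *Lamp1*, *Ctsd*, *Gla* and *Ctsa* were lower and *Mcoln1* did not pass. *Cln3*, which also holds CACGTG 2 times but is not printed, did not pass either (-0.26 ± 0.08, adjusted p = 0.0637). Over the 1175 other genes tested that hold CACGTG, 8.17% were lower and the median was 0.01.

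**Figure D3:**
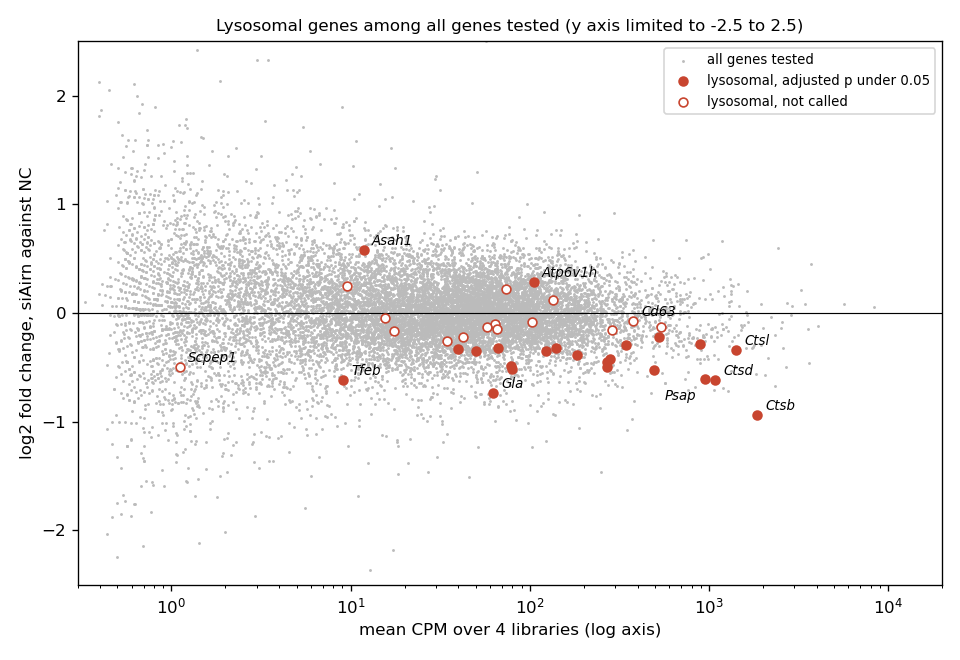
Log2 fold change, siAirn against NC, against mean CPM over the 4 libraries on a log axis, with all genes tested in grey and the lysosomal genes in red. Filled red points have an adjusted p under 0.05. The 20 members with a mean over 100 CPM lie mostly below 0, with *Ctsb* lowest at -0.94.

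Genes that serve the lysosome but are not among the 38 were sorted into 7 lists, of which 139 of 142 genes were tested, with 33 lower and 3 higher. The shares to read each list against are 8.56% lower and 8.27% higher over all genes tested, and 14.2% and 12.7% over the abundant ones. Other lysosomal hydrolases and cofactors were lower in 12 of 35 (34.3%) and higher in none, with a median log2 fold change of -0.25. They included *Ctss*, the cysteine protease cathepsin S (-0.95 ± 0.18), *Acp2*, the lysosomal acid phosphatase (-0.82 ± 0.07), and *Prcp*, a prolyl carboxypeptidase (-0.56 ± 0.09). Other membrane proteins were lower in 4 of 21 (19.0%) and higher in none, with a median of -0.06. With GC and length offsets the median of these proteins was -0.15. *Tpcn1*, an endolysosomal cation channel, had the largest change of these, from 42.8 and 44.0 CPM to 21.4 and 21.2 CPM (-1.03 ± 0.08, adjusted p = 0.00467), ahead of *Laptm5* (-0.71 ± 0.16), the potassium and proton channel *Tmem175* (-0.54 ± 0.10) and *Tmem192* (-0.33 ± 0.08).

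Of the genes that tag and deliver the enzymes, 3 of 16 were lower (18.8%) and 1 was higher (6.25%), with a median of -0.03. With GC and length offsets this median was -0.06. The lower ones were the adaptor subunits *Ap1b1* (-0.45 ± 0.07) and *Ap1s1* (-0.33 ± 0.08) and the uncovering enzyme *Nagpa* (-0.32 ± 0.08). *Igf2r*, the larger of the mannose 6-phosphate receptors, was the higher one, at 34.5 and 34.8 CPM against 41.9 and 50.5 CPM (0.41 ± 0.10, adjusted p = 0.0379). *Igf2r* lies opposite *Airn* in the genome, on the other strand, and its expression from the paternal copy is known to be silenced by *Airn*. The use of strand in counting is not given in the sources used here, so reads of the overlap cannot be told apart. The smaller receptor *M6pr* did not pass (0.01 ± 0.08), nor did the sorting receptor *Sort1* (-0.36 ± 0.12, adjusted p = 0.09).

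Nutrient sensing at the lysosome, which controls where TFEB resides, had 1 of 18 genes lower (5.56%) and 2 higher (11.1%), beside 8.56% and 8.27% of all genes tested. *Rragd*, a Rag GTPase, rose by 0.75 ± 0.17 and *Fnip1*, the partner of folliculin, by 0.63 ± 0.07, whereas the Ragulator subunit *Lamtor5* fell by 0.40 on the log2 scale (-0.40 ± 0.06). Autophagy genes were lower in 3 of 16 (18.8%), namely *Map1lc3b* (-0.30 ± 0.06), *Gabarap* (-0.29 ± 0.06) and *Wipi2* (-0.22 ± 0.06), and none was higher. Genes of fusion between late endosomes and lysosomes were lower in 1 of 16, the SNARE *Vamp8* (-0.31 ± 0.07), or 6.25% beside 8.56% of all genes tested. The medians of these 3 lists were -0.06, -0.16 and -0.11. With GC and length offsets they were -0.05, -0.08 and -0.08, the last over 15 genes. No test of the difference between these lists and the 38 genes was made.

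**Figure D4:**
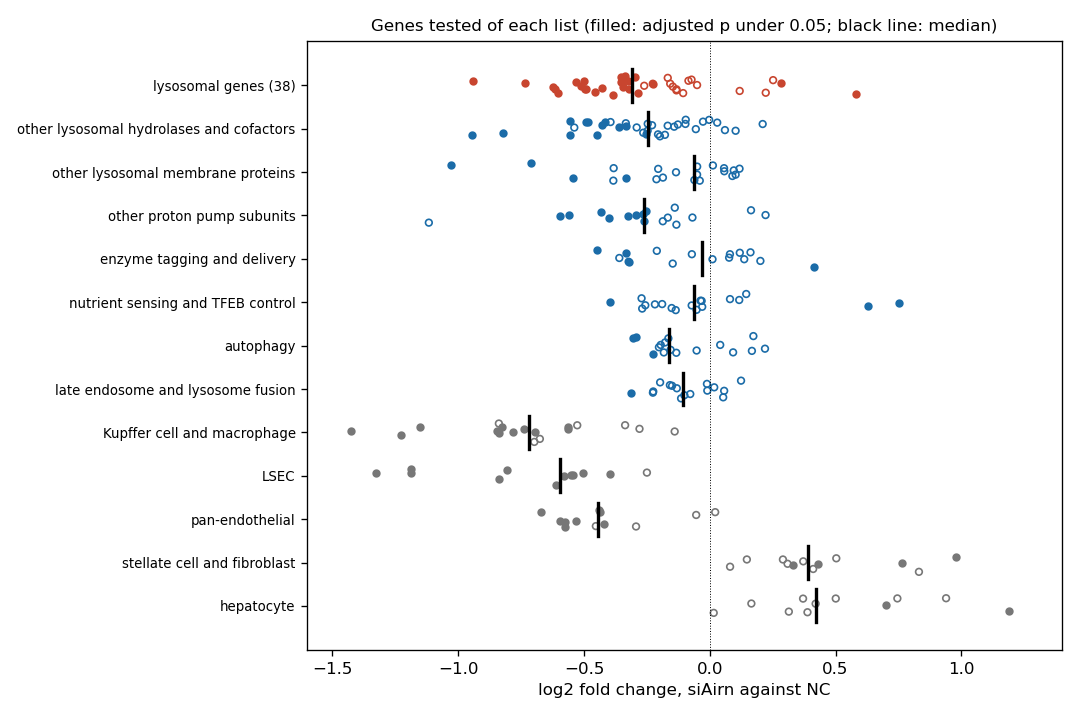
Log2 fold change, siAirn against NC, of every gene tested in the 38 lysosomal genes (red), the 7 other lysosomal and autophagy lists (blue) and 5 cell type marker lists (grey). Each point is 1 gene, filled where the adjusted p is under 0.05, and black lines are medians. The medians, without GC and length offsets, run from -0.72 for macrophage markers to 0.42 for hepatocyte markers, with the lysosomal genes at -0.31.

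GC content moved with the fold change and with membership. Across all genes tested Spearman's rho between log2 fold change and GC content of the longest transcript was -0.33, and across the 38 members it was -0.46. These are correlations across genes of the same 4 libraries and are given as a description. The members' median GC was 51.0% against 49.7% for all genes tested. Among the 5176 genes within the members' GC quartiles, from 46.8% to 54.4%, the median log2 fold change was -0.02 and 8.33% were lower. When GC content and length were fitted as offsets, the members' median was -0.27, and 15 were lower and 1 higher. Of the 21 genes called lower without offsets, 13 kept the call, and *Lamp1*, *Laptm4a*, *Hexa*, *Naglu*, *Neu1*, *Npc2*, *Atp6v0d1* and *Tfeb* lost it. *Npc2* (-0.38, adjusted p = 0.0502) and *Neu1* (-0.26) kept most of their fold change, whereas *Hexa* went to -0.22, *Naglu* to -0.18 and *Atp6v0d1* to -0.19. The values of the others were -0.19 for *Lamp1*, -0.15 for *Laptm4a* and -0.43 for *Tfeb*. The 2 members called lower with offsets but not without them were *Galc*, at -0.41 (adjusted p = 0.0293), and *Lamp2*, at -0.27 (adjusted p = 0.041), while *Npc1* went from -0.11 to -0.28 and did not pass. *Atp6v1h*, with the lowest GC content of all members at 37.6%, went from 0.28 to 0.06. *Ctsb* (-1.01), *Gla* (-0.77), *Ctsl* (-0.55) and *Psap* (-0.49) remained lower, and *Asah1* remained higher (0.53). Of the other pathway genes named above, *Ap1s1* (-0.13), *Nagpa* (-0.14), *Tmem192* (-0.16), *Gabarap* (-0.15), *Vamp8* (-0.20) and *Igf2r* (0.23) moved by over 1.5 times and lost the call with offsets. *Lamtor5* (-0.27), *Atp6v0e2* (-0.41), *Laptm5* (-0.58) and *Rragd* (0.62) also lost it, while *Fnip1* went to 0.36 and kept it. Values also shrank in pump subunits called lower but not named above. *Atp6v1f* went from -0.26 to -0.07, *Atp6v1g1* from -0.25 to -0.16 and *Tcirg1* from -0.27 to -0.14.

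**Figure D5:**
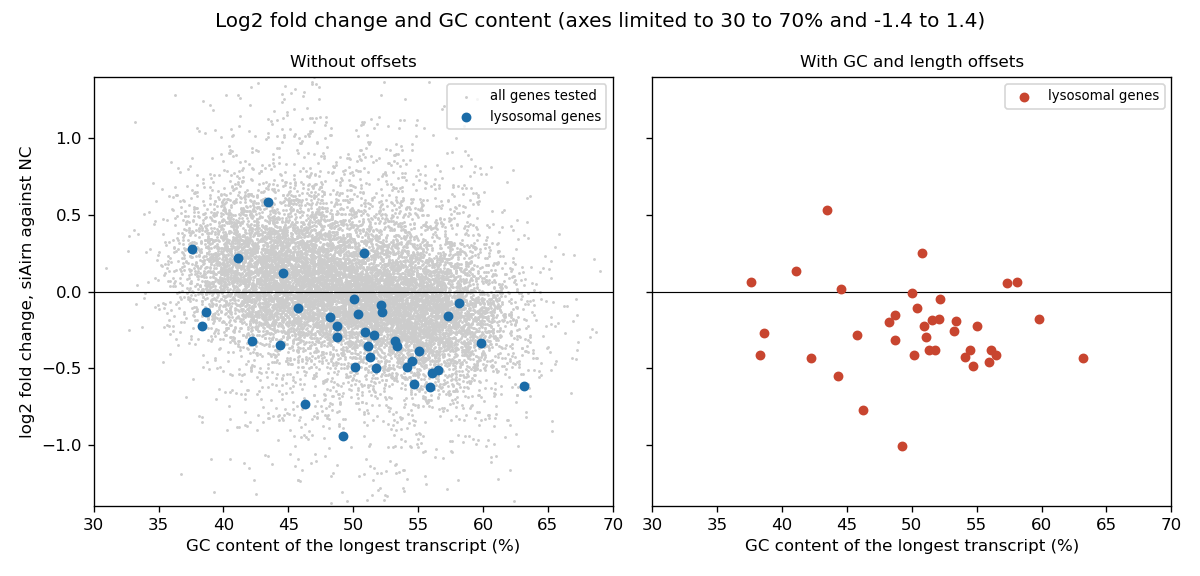
Log2 fold change, siAirn against NC, against GC content in percent. The left panel shows all genes tested in grey and the lysosomal genes in blue without offsets, and the right panel the lysosomal genes with GC and length fitted as offsets. The members' median is -0.31 on the left and -0.27 on the right.

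Markers of endothelial cells and macrophages were lower together with the lysosomal genes, while no marker of stellate cells or hepatocytes was called lower. Endothelial markers were abundant, with LSEC markers summing to 4007 and 4031 CPM in NC and 2819 and 2560 CPM in siAirn, and pan-endothelial markers to 11840.5 and 11219.7 CPM against 8639.7 and 7536 CPM. Beside the 8.56% of all genes tested that were lower, LSEC markers were lower in 11 of 12 (91.7%), among them the scavenger receptor *Stab1* (-0.55 ± 0.07), *Oit3* (-0.61 ± 0.07) and *Flt4* (-0.58 ± 0.07), with a median of -0.60. Pan-endothelial markers were lower in 8 of 12 (66.7%), with a median of -0.45. Kupffer cell and macrophage markers, whose cells are rich in lysosomes, were lower in 11 of 18 (61.1%) and summed to 359 and 441 CPM in NC and 275 and 234 CPM in siAirn, with a median of -0.72. None of the 20 macrophage markers was at 0 in all libraries. The 3 with the highest mean CPM were *Lyz2* (-0.57 ± 0.11), *Cd68*, itself a lysosomal membrane protein (-0.70 ± 0.15), and *Mpeg1* (-0.34 ± 0.12, not called). Beside the 8.27% of all genes tested that were higher, stellate cell and fibroblast markers were higher in 4 of 12 (33.3%), with sums of 1732 to 2099.8 CPM in NC and 2023 to 2619.8 CPM in siAirn. Hepatocyte markers were higher in 2 of 11 (18.2%), with sums of 703 to 879 CPM against 971 to 1263 CPM. With GC and length offsets the median was -0.53 for macrophage, -0.63 for LSEC and -0.41 for pan-endothelial markers. It was 0.39 for stellate cell and fibroblast markers with and without offsets, and went from 0.42 to 0.51 for hepatocyte markers. Of the lymphocyte, neutrophil and monocyte, and cholangiocyte markers tested (3, 2 and 5 genes) none was called, *Mpo* was at 0 in all libraries, and *Elane* and *Retnlg* are not in the table. The part of cell composition in the lysosomal result was not tested.

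Depth was even, at 17308382 and 18371959 counts in the NC libraries and 17766188 and 17545853 in the siAirn libraries, and 2294 of 13628 genes were called in all. Some members' counts are uncertain where genes share sequence or overlap. In the GENCODE annotation, 36.6% of the 50-base windows of *Ctsd* also occur in Gm49369, 9.03% of those of *Cd63* in Cd63-ps, Ankrd17 or Gm43637, and 6.90% of those of *Ctsl* in other genes. Gm49369 is not among the gene symbols of the deposited table. Exons of other genes lie on the opposite strand over 39.9% of the exonic bases of *Arsb*, 26.8% of *Ctsl*, 18.8% of *Arsa*, 17.4% of *Ctsa*, 12.8% each of *Ctsb* and *Hexa*, and 9.31% of *Lamp1*. For *Ctsb* the overlapping gene is *Fdft1*, at 10.7 to 15.0 FPKM and itself lower (-0.38 ± 0.09, adjusted p = 0.0347), against 706 to 1451 FPKM for *Ctsb*.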

How the data were processed

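The data were 4 RNA-seq libraries of primary mouse LSECs, grouped by their labels into 2 NC and 2 siAirn. The reads were single-end. The authors deposited estimated counts per gene, not normalized, of which 76.5% to 76.8% are whole numbers, and a further value per gene and library whose unit the header does not name. The authors' value was taken to be FPKM, since it scales with count, length and library total and has no fixed sum. The submitters' processing notes name BWA, Bowtie2 and RSEM without roles, and the build hg19, a human build, although the samples are mouse, so no gene coordinates from the table's build are given. The use of strand is not given in the sources used here. The group means the authors deposited were not used.

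Counts were rounded and tested in R 4.3.3 with edgeR 4.0.16 (TMM factors from 0.985 to 1.02, filterByExpr, quasi-likelihood F test, two-sided, no covariate), with Benjamini-Hochberg adjustment over 13628 genes and a threshold of 0.05. The common biological coefficient of variation was 0.0754. The standard error is the one implied by the F statistic. CPM are TMM scaled, and FPKM was used to rank the members by level. The abundance background, the sums over lists, the size of decreases and the choice of markers to name used CPM, which is not corrected for length. GC content and length came from the longest GENCODE M21 transcript (95.0% of genes tested) and entered as offsets through natural splines with 5 degrees of freedom. Promoter windows came from RefSeq, GRCm38.p6. Alternatives were DESeq2 1.42.0, upper-quartile scaling, other filters, the likelihood-ratio test, limma 3.58.1 on log2(FPKM + 1) and log2(FPKM + 0.1) (mean FPKM no lower than 1), a replicate block, the offsets, the fold change over 1.4 with unadjusted p under 0.05 that the methods state, and leaving out each library.

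The 38 members, the 7 pathway lists and the 8 marker lists (LSEC, pan-endothelial, macrophage, hepatocyte, stellate cell, cholangiocyte, lymphocyte, and neutrophil and monocyte) were chosen with earlier results of these data known. Library values are given for members that passed the test, for the 6 with the highest mean FPKM and for *Tfeb*, *Tfe3* and *Mcoln1*, apart from *Ctsc*, *Atp6v1a* and the range of *Scpep1*, which were added after their values were seen. Of each pathway list, up to 4 genes that passed with the largest change are named, apart from an item that is not reported here, with *Igf2r*, *M6pr*, *Sort1* and *Mitf* in any case, and of the macrophage and LSEC lists the 3 genes with the highest mean CPM. *Fdft1* is named because its exons overlap *Ctsb*, and *Atp6v1f*, *Atp6v1g1* and *Tcirg1* for their shifts with offsets. Detection limits of 3 counts cover counting error only.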

Additional observations from a re-analysis of the deposited data

How the results depend on the processing

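The median log2 fold change of the 38 lysosomal genes stayed between -0.32 and -0.25 in every setting tried, and all 21 genes called lower stayed below 0 in each. The number called depended on the test. DESeq2 called 19 lower and 1 higher, and limma on log2(FPKM + 1), which left out *Scpep1*, called 10 lower and 1 higher of 1242 genes, with a median of -0.25. On log2(FPKM + 0.1), limma called 0 members lower and 0 higher of 7 genes (3835 at an unadjusted p under 0.05), with a median of -0.25. A fold change over 1.4 with an unadjusted p under 0.05 left 9 lower and 1 higher of 1358 genes. GC and length offsets gave 1053 genes, 15 members lower, 1 higher and a median of -0.27. Leaving out 1 library gave 0 to 2410 genes called, 0 to 18 members lower, 0 to 1 higher, and medians from -0.31 to -0.28. The 0 genes without NC replicate 2 compare with 3106 at an unadjusted p under 0.05, and these fits rest on 1 residual degree of freedom, so the lone library of a group is assumed to vary like the other group.

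Same-numbered libraries deviated from their group means with a correlation of 0.22 over only 2 pairs, so the numbers are not taken to pair the libraries. A replicate block raised the genes called from 2294 to 4841, with 24 members lower and 3 higher. The block with GC and length offsets called 4288 genes, 26 members lower, 1 higher and a median of -0.27.

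Genes that changed sign were not called in the reported fit. *Ctsh* was 0.0102 and 0.0111 in the limma fits (pseudocounts 1 and 0.1), and ran from -0.139 to 0.0312 without 1 library. *Cd63* was 0.0619 with offsets and 0.0656 with block and offsets, and ran from -0.205 to 0.0682 without 1 library. *Ctsz* was 0.0576 with offsets and 0.0570 with block and offsets. *M6pr* was -0.0308 and -0.0316 in these fits and ran from -0.0724 to 0.0881 without 1 library. The ranges without 1 library were -0.705 to 0.0869 for *Mitf*, -0.229 to 0.00616 for *Npc1* and -0.177 to 0.000616 for *Tfe3*. Other uncalled members that moved by over 1.5 times without 1 library were *Lamp2* (-0.20 to -0.07), *Mcoln1* (-0.23 to -0.06), *Ctsz* (-0.25 to -0.06), *Ctsc* (0.03 to 0.44), *Scpep1* (-0.97 to -0.14), *Gusb* (-0.20 to -0.07), *Manba* (-0.28 to -0.05), *Galc* (-0.32 to -0.14) and *Arsb* (0.11 to 0.38). The cause of these shifts was not tested. Over all settings, 747 values of single genes kept direction and side of the threshold, 236 lost the call, 19 gained it and 15 changed sign.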
